A study of Mus musculus with 12 samples.

Results

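The genes described here are 52 genes of mitosis and cytokinesis, listed by symbol for their textbook roles in entry into mitosis, the spindle, the kinetochore, anaphase and the final split of the cell. They are 52 of the 51826 mouse genes in the deposited count table. Each of the 52 symbols matched 1 gene of the table, and all 52 passed the filter on low counts, as did 15038 genes in all. They fall into 10 groups by role, which order the account that follows. The list was chosen with earlier results of these data known, so the results describe its genes and are not independent tests of them.

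Counts came from 12 lines of bone marrow pre-B cells, the B lymphocyte precursors that need interleukin 7 (IL7) in culture, from C57BL/6 mice. Marrow of 2 mice was grown with IL7 for 7 days. From each mouse 3 lines received an empty pMIG retroviral vector (EV) and 3 lines the same kind of vector with BCR-ABL1, the constantly active kinase of Philadelphia chromosome-positive leukaemia. All lines had IL7 for 48 h after transduction. IL7 was then taken away from the BCR-ABL1 lines for 1 week, while EV lines kept IL7 for a like time and went through a sort for GFP, which the vector carries. BCR-ABL1, IL7 withdrawal and the lack of a sort therefore coincided in 6 of 12 lines and cannot be told apart. Sample titles end in 1A to 2C. The number is read here as the mouse and the letter as the line, so that EV 2C is an EV line of mouse 2. The authors prepared triplicates in 3 independent experiments, and the labels do not say whether the letters mark these. The 3 lines of a mouse share that mouse, and 2 mice are the only independent animals. The labels call the cells pro-/pre-B, and all 12 B lineage markers examined were above 3 counts in all 12 lines. None of 11 myeloid, 5 mast cell and 8 stromal markers passed the filter on low counts. Of 8 T and NK markers 3 did (Cd3d, Klrb1c and Lck), as did 2 of 7 erythroid and megakaryocyte markers (Klf1 and Itga2b).

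A cell enters mitosis when B-type cyclins switch on the kinase CDK1, and leaves it when the anaphase-promoting complex destroys those cyclins and securin. Between these steps, kinesins and microtubule-binding proteins build the spindle, kinetochores attach chromosomes to it, and a checkpoint delays anaphase until every chromosome is attached. Transcripts of these genes accumulate in G2 and M phase and are kept low in resting cells, largely by complexes that bind a CHR element and, for activation, the factor NF-Y on CCAAT boxes. Total RNA of a culture cannot tell fewer cells in mitosis from less RNA per cell.

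The promoters of members are shown because most of those in the promoter table hold letters that the list of roles did not use. The RefSeq promoter table (GRCm38.p6) held 43 of the 52 genes, in 47 windows of 300 bases around the start of transcription. CHR was searched as TTTGAA or TTTAAA and the NF-Y box as CCAAT, on both strands. CHR letters were found in 34 of 43 members (79.1%), against 22.8% of 9623 tested genes and 30.6% of 27025 genes of the table. CCAAT was found in 33 members (76.7%), against 43.3% of the tested genes. Both stood in 1 window in 29 members (67.4%), against 9.47%. Mad2l1, Pttg1, Nuf2, Cit and Nusap1 held neither. A match is a run of letters and not a bound site.

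Stretches of 120 bases that end at the base before the start are printed 5′ to 3′ on the strand of the gene, with CCAAT, CHR and their reverse complements in capitals. Ccnb1, Cdk1 and Kif11 hold both motifs. Gas2l3, Nek2 and Cdc25b are shown because they had the largest changes of the list and hold CCAAT without TTTGAA or TTTAAA in the whole window. Other spellings were not searched, among them the ttcgaa near the end of the Gas2l3 stretch, so absence of a CHR element is not shown.
Ccnb1 (chr13:100786487-100786606, minus strand): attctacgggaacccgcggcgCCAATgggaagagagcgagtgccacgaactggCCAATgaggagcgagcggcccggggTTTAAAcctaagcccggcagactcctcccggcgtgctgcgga
Cdk1 (chr10:69352913-69353032, minus strand): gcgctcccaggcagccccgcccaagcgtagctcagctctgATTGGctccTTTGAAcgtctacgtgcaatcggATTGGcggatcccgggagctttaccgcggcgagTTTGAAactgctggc
Kif11 (chr19:37376262-37376381, plus strand): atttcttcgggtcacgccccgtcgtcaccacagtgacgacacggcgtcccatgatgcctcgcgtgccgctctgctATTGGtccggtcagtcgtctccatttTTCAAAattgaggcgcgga
Gas2l3 (chr10:89443968-89444087, minus strand): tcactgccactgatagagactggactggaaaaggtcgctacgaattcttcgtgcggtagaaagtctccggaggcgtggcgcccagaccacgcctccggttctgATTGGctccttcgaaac
Nek2 (chr1:191821353-191821472, plus strand): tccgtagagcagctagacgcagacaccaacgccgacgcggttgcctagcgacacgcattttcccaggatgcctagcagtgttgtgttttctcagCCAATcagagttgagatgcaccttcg
Cdc25b (chr2:131186828-131186947, plus strand): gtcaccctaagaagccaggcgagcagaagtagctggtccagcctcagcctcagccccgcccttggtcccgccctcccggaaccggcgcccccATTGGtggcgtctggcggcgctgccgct
In these stretches Ccnb1 had its CHR 42 bases before the start and CCAAT boxes 99 and 67 bases before it. Cdk1 carried CHR letters at 71 and 15 bases before its start. The other members without CHR letters in the window were Bub1, Cit, Mad2l1, Nuf2, Nusap1 and Pttg1. Members called higher in BCR-ABL1 lines by the test against no change, described next, held CHR letters in 13 of 16 cases, and the rest of the members in 21 of 27.

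Over all 12 lines most members differed little between the conditions, and for most of them the difference depended on the mouse. Counts were scaled by edgeR's TMM method and are given as CPM, which corrects for the size of each library. The comparison of both conditions used edgeR's quasi-likelihood fit over all tested genes, with Benjamini-Hochberg adjusted p-values (FDR) called under 0.05. This fit had condition as its only term, so differences between mice are part of the spread between lines. Standard errors (SE) of log2 fold changes come from the spread between lines. Against a 1.5-fold change (glmTreat), 1 of 52 members was higher in BCR-ABL1 lines, Gas2l3, and 0 were lower, where 5.99% of all tested genes were higher and 6.49% lower. At an unadjusted p under 0.05 this test had 1 member lower, Cdc25b, and DESeq2 called 0 lower. Against no change, 19 members were higher and 1, Cdc25b, was lower, where 22.5% and 25.9% of all tested genes were called. The remaining 32 members were not called. In 12 members every BCR-ABL1 line lay above every EV line, against 12.1% of all tested genes, and in 0 did every BCR-ABL1 line lie below, against 13.5%. The log2 fold change was positive in 47 of 52 members, with a median of 0.18 beside -0.02 for all tested genes. These counts changed when EV 2A and EV 2B were left out, which leaves EV 2C as the only EV line of mouse 2. Mouse 1 then weighs more among EV lines, so this setting cannot tell these libraries from the mouse. Without both lines, a setting chosen after seeing the data, 11 members were higher and 3 lower, where 23.6% and 25.9% of 15404 tested genes were called. In that setting 29 members were positive and the median was 0.05.

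**Figure D1:**
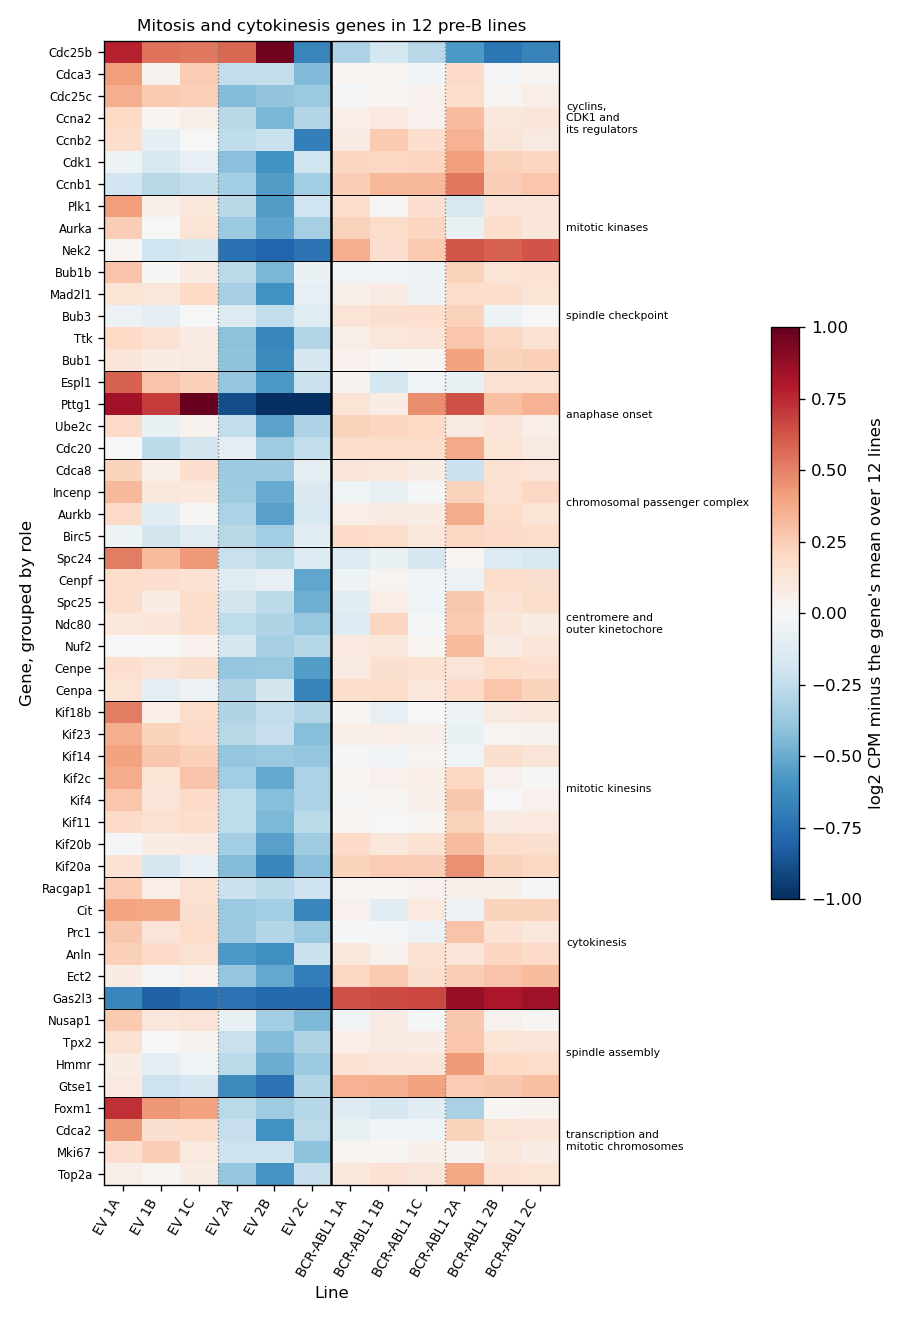
Each row is 1 gene, grouped by role, and each column 1 line, with EV lines left of the black line, BCR-ABL1 lines right of it and mouse 1 left of mouse 2 at each dotted line. Colour is log2 CPM minus the gene's mean over the 12 lines and saturates at 1 in either direction. The 3 EV lines of mouse 2 are blue in nearly all rows, and Gas2l3 is blue in all 6 EV lines and red in all 6 BCR-ABL1 lines.

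Gas2l3 showed the largest change. Because the list was chosen with earlier results known, its place at the top is a description. Gas2l3 encodes a protein that binds actin and microtubules at the central spindle and midbody in cytokinesis. The gene (ENSMUSG00000074802) lies on chromosome 10 of GRCm38 from 89408823 to 89443967. In EV lines it was at 55.1, 49.6 and 51.5 CPM in mouse 1 (lines A, B and C) and at 52.2, 50.8 and 50.8 CPM in mouse 2. In BCR-ABL1 lines it was at 136, 137 and 138 CPM in mouse 1 and at 159, 152 and 157 CPM in mouse 2. The EV lines were within a few CPM of one another whatever the mouse, and the lowest BCR-ABL1 line was far above the highest EV line. The means were 51.7 ± 1.89 CPM (SD, n = 6) and 146 ± 10.6 CPM (SD, n = 6), a 2.83-fold difference. The log2 fold change was 1.501 with an SE of 0.05 (glmTreat FDR = 3.50e-07 by edgeR). The change was 1.40 in mouse 1 and 1.62 in mouse 2, and these were not shown to differ (edgeR interaction of mouse and condition, FDR = 0.142). Its call held in each of the alternative fits run.

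Of the 7 genes of cyclins, CDK1 and its regulators, 3 were higher against no change and 1 was lower. Ccnb1, the mitotic cyclin B1 (chromosome 13, 100778650 to 100786570), was at 193, 181 and 186 CPM in the EV lines of mouse 1 and at 174, 150 and 173 CPM in those of mouse 2. Its BCR-ABL1 lines were at 262, 278 and 275 CPM and at 317, 261 and 268 CPM. Every BCR-ABL1 line was above every EV line in both mice. The log2 fold change was 0.65 (SE 0.07, FDR = 4.02e-05 against no change, 0.296 against 1.5-fold by edgeR).

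Cdk1, the kinase that cyclin B activates (chromosome 10, 69335146 to 69352938), was at 217, 202, 211, 167, 148 and 195 CPM in the EV lines 1A to 2C. Its BCR-ABL1 lines were at 260, 258, 260, 299, 263 and 260 CPM. The ranges did not overlap, and the log2 fold change was 0.49 (SE 0.09, FDR = 0.00117 by edgeR against no change). Ccnb2, the other B-type cyclin, rose by 0.34 on the log2 scale (FDR = 0.0345), a call held in 15 of 23 alternative fits. Ccna2, cyclin A2 of S and G2 phase, was at 484, 427, 439, 348, 308 and 344 CPM in EV lines 1A to 2C and at 441, 450, 435, 522, 454 and 458 CPM in BCR-ABL1 lines, and was not called (FDR = 0.0920). Cdc25c, a phosphatase that activates CDK1, and Cdca3, a trigger of mitotic entry, had log2 fold changes of 0.07 and 0.04.

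Cdc25b, another CDK1-activating phosphatase and an early starter of mitosis, went the other way. The gene lies on chromosome 2 from 131186949 to 131198497. It was at 213, 182 and 180 CPM in the EV lines of mouse 1, and at 185, 243 and 79.1 CPM in those of mouse 2. BCR-ABL1 lines had 101, 111 and 103 CPM in mouse 1 and 83.9, 75.7 and 78.5 CPM in mouse 2. EV 2C thus lay among the BCR-ABL1 lines, while the other 5 EV lines were above all of them. The log2 fold change was -0.97 (SE 0.25, FDR = 0.00328 against no change and 0.0900 against 1.5-fold by edgeR). Without EV 2C it was -1.12, and the FDR against 1.5-fold was 0.00131. It fell by 0.86 in mouse 1 alone, and in mouse 2 alone the value was -1.08 and not called (edgeR FDR = 0.0888).

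**Figure D2:**
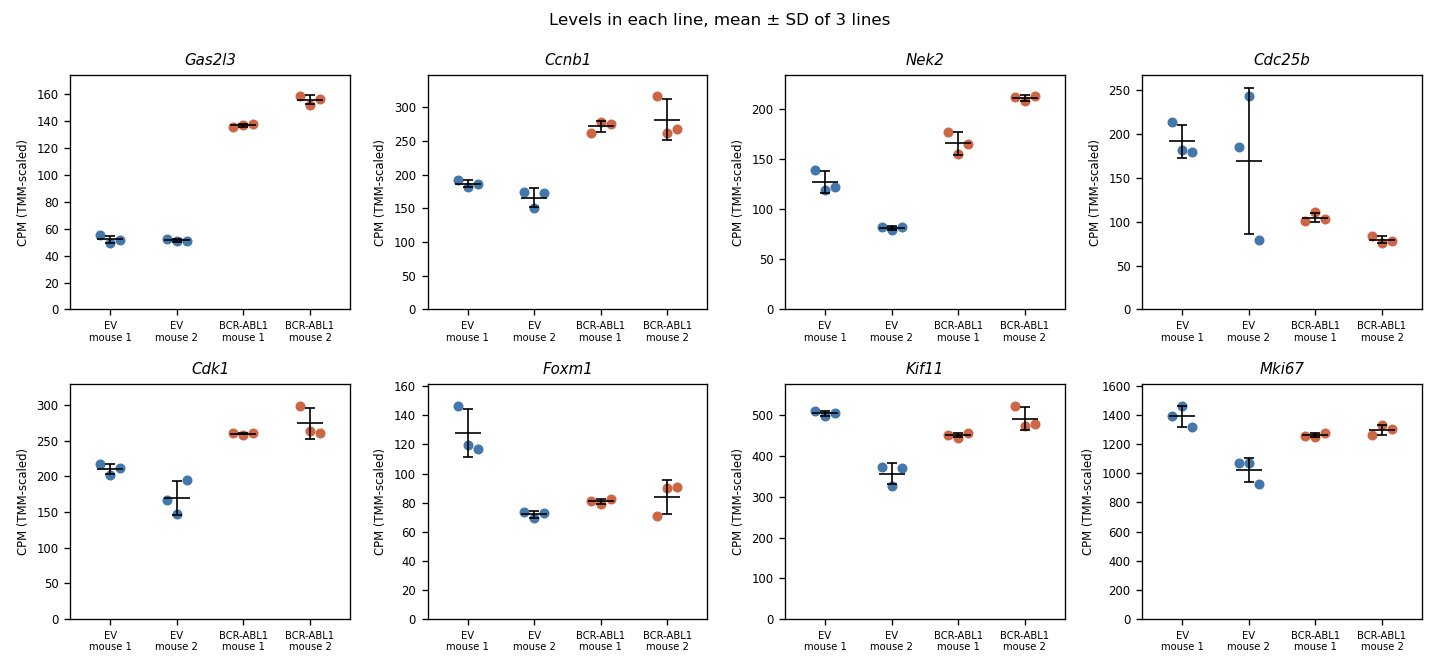
Points are TMM-scaled CPM of single lines for 8 genes, with EV lines in blue and BCR-ABL1 lines in orange, on linear axes from 0. Black bars are the mean and SD of the 3 lines of a mouse and condition. Gas2l3 and Ccnb1 separate by condition, whereas Foxm1, Kif11 and Mki67 are lowest or near lowest in the EV lines of mouse 2.

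Among the 3 mitotic kinases, Nek2 was called. NEK2 splits the linked centrosomes at the start of mitosis, and its gene lies on chromosome 1 from 191821444 to 191833050. EV lines had 139, 119 and 122 CPM in mouse 1 and 82.1, 79.1 and 82.2 CPM in mouse 2, and BCR-ABL1 lines had 177, 155 and 164 CPM and 211, 207 and 212 CPM. In each mouse all BCR-ABL1 lines were above all EV lines, by a wider gap in mouse 2. The log2 fold change was 0.85 (SE 0.17, FDR = 0.00107 against no change, 0.101 against 1.5-fold by edgeR). It was 0.39 in mouse 1 and 1.39 in mouse 2, a difference of 0.99 (interaction FDR = 0.000163 by edgeR), the smallest interaction FDR of the 52 members. Plk1, polo-like kinase of spindle assembly and mitotic exit, had EV values of 86.2, 67.2, 70.1, 53.4, 43.8 and 56.3 CPM and BCR-ABL1 values of 72.9, 65.1, 72.6, 57.9, 70.8 and 70.3 CPM (log2 fold change 0.12, FDR = 0.498). Aurka, the centrosomal Aurora kinase, had a log2 fold change of 0.26 (FDR = 0.116).

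Of 5 spindle checkpoint genes, only Bub3, a scaffold of checkpoint complexes, passed the test against no change, with a log2 fold change of 0.22 (SE 0.06, FDR = 0.0131). Bub1, Bub1b, Mad2l1 and Ttk were not called and had values between 0.12 and 0.29. Among the 4 genes of anaphase onset, Cdc20 and Ube2c were higher. CDC20 activates the anaphase-promoting complex, and its gene was at 158, 132, 139, 148, 123 and 133 CPM in EV lines 1A to 2C. Its BCR-ABL1 values were 179, 179, 179, 206, 174 and 169 CPM. The ranges of Cdc20 did not overlap, and its log2 fold change was 0.38 (SE 0.07, FDR = 0.00108 by edgeR). Ube2c, the ubiquitin-conjugating enzyme of that complex, rose by 0.29 (FDR = 0.0368), a call held in 11 of 23 alternative fits. Espl1, the separase that cuts cohesin, had a log2 fold change of -0.03 (FDR = 0.889). Its EV lines were at 154, 124 and 121 CPM in mouse 1 and 78.1, 68.6 and 87.5 CPM in mouse 2, around BCR-ABL1 values of 104, 90.5 and 99.3 CPM and of 96.9, 114 and 114 CPM.

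Of the chromosomal passenger complex, which corrects chromosome attachment and later marks the cleavage plane, Birc5 and Aurkb were higher. Birc5, encoding survivin (chromosome 11, 117849251 to 117855743), was at 119, 109, 115, 102, 96.9 and 115 CPM in the EV lines 1A to 2C, and at 141, 140, 133, 143, 141 and 140 CPM in the BCR-ABL1 lines. No EV line of Birc5 reached the lowest BCR-ABL1 line. Its log2 fold change was 0.35 (SE 0.05, FDR = 0.000446 by edgeR). Aurkb, the kinase of the complex, had 159, 129, 140, 112, 95.1 and 125 CPM in EV lines and 146, 147, 146, 180, 157 and 153 CPM in BCR-ABL1 lines. EV 1A lay among the BCR-ABL1 lines of Aurkb, and its log2 fold change was 0.29 (FDR = 0.0444 by edgeR). The call of Aurkb held in 9 of 23 alternative fits and was lost with line number as block, without a gene filter, with protein-coding genes alone and in 9 of the 12 fits that left out 1 line (edgeR FDR up to 0.563, in mouse 1 alone). Incenp and Cdca8, the other subunits, had values of 0.13 and 0.11 and were not called.

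At the centromere and outer kinetochore, 2 of 7 genes were higher. Cenpa, the histone H3 variant that marks centromeres, rose by 0.37 (FDR = 0.0143), and Nuf2, a subunit of the microtubule-binding NDC80 complex, by 0.24 (FDR = 0.0224), the latter called in 17 of 23 alternative fits. Spc24, of the same complex, had a log2 fold change of -0.24 (FDR = 0.156 by edgeR) with 98.9, 86.5 and 93.2 CPM in EV lines of mouse 1, 59.6, 57.7 and 63.2 CPM in those of mouse 2, and 63.1, 66.4, 61.8, 70.9, 63.2 and 62.0 CPM in BCR-ABL1 lines. Its EV lines of mouse 1 were thus above all the others. The remaining 4 genes, Ndc80, Spc25, Cenpe and Cenpf, had values between 0.06 and 0.26.

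Of 8 mitotic kinesins, the motors that slide and trim spindle microtubules, Kif20a and Kif20b were higher, by 0.52 (FDR = 0.00372) and 0.35 (FDR = 0.0163). Exons of Kif20a overlap those of Cdc23 on the other strand over 1271 bases, and Cdc23 had 77.5% as many counts. The strand setting of the counting is not stated, so the value of Kif20a is uncertain. Ccna2, Cdc20, Cdca8, Kif4, Nusap1 and Prc1 also share exon bases with a gene of the other strand, which had 11.5 to 31.8% as many counts. Kif11, the motor that pushes spindle poles apart, had EV values of 327 to 511 CPM and BCR-ABL1 values of 446 to 524 CPM (log2 fold change 0.13, FDR = 0.368). Kif14 and Kif18b, a cytokinesis motor and a microtubule depolymerase, had log2 fold changes of 0.04 and -0.0026. Kif18b was at 127, 93.3 and 101 CPM in EV lines of mouse 1 and at 72.5, 75.1 and 72.9 CPM in those of mouse 2. Its BCR-ABL1 lines, at 90.4, 84.4, 89.2, 86.3, 95.1 and 95.8 CPM, lay above the EV lines of mouse 2.

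Of 6 cytokinesis genes, Ect2 was higher beside Gas2l3. ECT2 is the exchange factor that starts the cleavage furrow, and EV values of its gene, 87.0 to 148 CPM, did not overlap the 157 to 174 CPM of BCR-ABL1 lines (log2 fold change 0.46, SE 0.13, FDR = 0.00992 by edgeR). Prc1, Anln, Racgap1 and Cit, which act at the central spindle, the contractile ring or the midbody, were not called. In spindle assembly 3 of 4 genes were higher. Gtse1, a microtubule-binding protein of G2 and M phase, rose by 0.62 (FDR = 0.00166), Hmmr by 0.39 (FDR = 0.00656) and Tpx2, the activator of Aurora A, by 0.25 (FDR = 0.0495). The call of Tpx2 held in 7 of 23 alternative fits. Nusap1 had a value of 0.10.

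Of the last 4 genes, of transcription and mitotic chromosomes, Top2a was higher. Top2a, the topoisomerase that untangles sister chromatids, was at 1685, 1651, 1708, 1237, 1072 and 1382 CPM in EV lines 1A to 2C. Its BCR-ABL1 lines, at 1741, 1790, 1764, 2113, 1786 and 1777 CPM, were all above them (log2 fold change 0.33, SE 0.12, FDR = 0.0385 by edgeR). Its call held in 10 of 23 alternative fits. It was lost with line number as block, without a gene filter and with protein-coding genes alone. It was also lost in 8 of the 12 fits that left out 1 line and without EV 2A and EV 2B together. In mouse 1 alone it was not called either (edgeR FDR = 0.308). Mki67, which coats mitotic chromosomes and is used as a marker of cycling cells, had EV values of 1389, 1463, 1319, 1069, 1070 and 929 CPM around BCR-ABL1 values of 1258, 1249, 1279, 1263, 1328 and 1301 CPM (log2 fold change 0.08, FDR = 0.533). Foxm1, a transcription factor that activates G2 and M genes, was at 147, 119 and 117 CPM in the EV lines of mouse 1, 73.4, 69.4 and 72.8 CPM in those of mouse 2, and 81.2, 78.9, 82.4, 70.7, 90.0 and 90.9 CPM in BCR-ABL1 lines. With a log2 fold change of -0.28 it was not called (FDR = 0.224), and its 3 EV lines of mouse 1 stood above all 9 others. Cdca2, a phosphatase subunit of anaphase chromosomes, had a value of 0.08.

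Levels of different genes were compared per kilobase of exon. In EV lines Top2a was the highest at 162 CPM per kb, followed by Mki67 at 120 and Ccna2 at 95.9. Cit at 4.30, Cdc25c at 5.04, Kif14 at 6.13 and Pttg1 at 6.26 CPM per kb were the lowest. Gas2l3 was at 7.35 CPM per kb in EV lines and at 20.8 in BCR-ABL1 lines, still below Cdk1 at 38.5 and 54.1.

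The mouse was tested as an interaction with condition, which asks whether the effect, the difference between BCR-ABL1 and EV lines, itself differed between mice. It did for 38 of 52 members (edgeR quasi-likelihood FDR under 0.05), against 16.9% of all tested genes, and all 38 had the larger log2 fold change in mouse 2. The median difference was 0.55. In lines of mouse 1 alone, 13 members were higher and 20 lower against no change, where 34.6% and 33.5% of 15395 tested genes were called, and the median was -0.08. In lines of mouse 2 alone 37 were higher and 0 lower, where 9.16% and 9.74% of 15400 tested genes were called, and the median was 0.50. At an unadjusted p under 0.05, 1 member, Cdc25b, was lower there by the same edgeR test. Against 1.5-fold, Gas2l3 was higher and Cdc25b lower in mouse 1 alone, with 16.3% and 12.2% of all tested genes called. Gas2l3 and Nek2 were higher and 0 members lower in mouse 2 alone, with 3.99% and 2.65% of all tested genes called.

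In 31 members the log2 fold change was negative in mouse 1 and positive in mouse 2, and 13 were called in opposite directions. The shares of all tested genes with opposite signs or opposite calls were not counted. These 13 were Cdc25c, Pttg1, Espl1, Incenp, Spc25, Kif11, Kif2c, Kif4, Kif14, Kif18b, Prc1, Cit and Cdca2. Kif14 was at 83.9, 76.5 and 74.6 CPM in EV lines of mouse 1 and at 62.3, 62.3 and 64.6 CPM in its BCR-ABL1 lines. In mouse 2 it was at 48.5, 49.1 and 48.4 CPM in EV lines and at 61.6, 70.8 and 69.2 CPM in BCR-ABL1 lines. Kif14 was therefore highest in EV lines of mouse 1 and lowest in those of mouse 2, with both sets of BCR-ABL1 lines between (interaction FDR = 0.000492 by edgeR). Cdc25c had the same order, with EV values of 32.3, 30.0 and 29.6 CPM in mouse 1 and 18.5, 19.1 and 19.3 CPM in mouse 2 on either side of the BCR-ABL1 values, 24.9, 25.5, 25.8, 28.3, 25.5 and 26.2 CPM (interaction FDR = 0.000539). In both mice 11 members were called higher, Ccnb1, Cdk1, Nek2, Ube2c, Birc5, Cenpa, Kif20a, Ect2, Gas2l3, Hmmr and Gtse1. The share of all tested genes called higher in both mice was not counted. All 13 members higher in mouse 1 alone were among the 19 called over 12 lines, as were 17 of the 37 higher in mouse 2 alone.

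**Figure D3:**
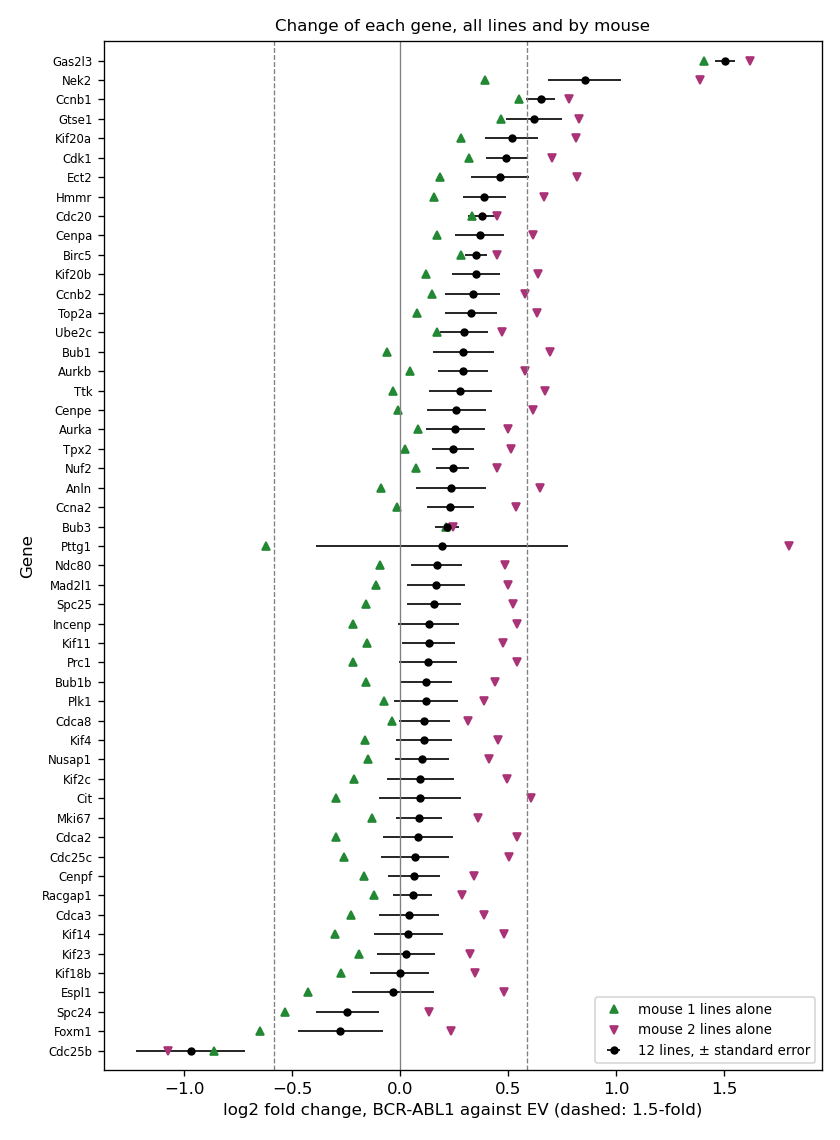
Log2 fold changes of BCR-ABL1 against EV lines are shown for the 52 genes in order of their size, black for 12 lines with the standard error, green for lines of mouse 1 and purple for lines of mouse 2. Dashed lines mark a 1.5-fold change. The values of mouse 2 lie right of those of mouse 1 for 51 genes, Cdc25b being the exception.

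The contrast between mice was larger among EV lines than among BCR-ABL1 lines. It was examined after the interaction was seen, and it uses the same lines. EV lines of mouse 2 were lower than EV lines of mouse 1 in 46 members and higher in 0 (edgeR, FDR under 0.05 against no change), against 9.56% and 15.2% of all tested genes. At an unadjusted p under 0.05 again 0 were higher. All 52 log2 differences were negative, with a median of -0.46. In 48 members the 3 EV lines of mouse 2 were all below the 3 of mouse 1. The share of all tested genes with this separation was not counted, so the 48 cannot be judged against it. The 6 members not called were Ccnb1, Cdc25b, Bub3, Cdc20, Birc5 and Gas2l3. By 1.5-fold 1 member was called, against 2.02% of all tested genes. This was Pttg1, securin, the inhibitor of separase, with 20.3, 18.4 and 23.0 CPM in mouse 1 and 6.13, 1.93 and 5.30 CPM in mouse 2. Pttg1 was named after its values were seen. In BCR-ABL1 lines 1 member, Nek2, was higher in mouse 2 and 0 were lower, against 3.15% and 2.83% of all tested genes, and the median difference was 0.08. At an unadjusted p under 0.05, 0 members were lower there too.

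The size of this shift can be read in each line as the mean over the 52 genes of log2 CPM minus the gene's mean over 12 lines. It was 0.22, 0.06 and 0.11 in EV lines of mouse 1 and -0.32, -0.45 and -0.36 in EV lines of mouse 2. BCR-ABL1 lines had 0.08 to 0.09 in mouse 1 and 0.14 to 0.20 in mouse 2. The 3 EV lines of mouse 2 thus stood apart from the 9 others. The 52 genes took 1.11 to 1.21% of all counts in EV lines of mouse 1, 0.739 to 0.791% in those of mouse 2 and 1.01 to 1.12% in BCR-ABL1 lines.

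Total counts ranged from 34791011 in EV 2A to 66011225 in BCR-ABL1 2B. EV 2A and EV 2B also had 9.78% and 7.61% of their counts on small noncoding RNA genes, against 1.77 to 3.92% in the 10 other lines. EV 2C had 2.89% and a member mean of -0.36. The 12 B lineage markers summed to 8241 and 7646 CPM in EV 2A and EV 2B and to 4949 to 5732 CPM in the 10 others. Sums of myeloid, mast cell and stromal markers were at most 1.99, 0.551 and 1.90 CPM, each highest in EV 2A. The part of these differences in the result was not tested. With protein-coding genes alone, 46 members were again lower in EV lines of mouse 2, against 11% of all tested genes. Without EV 2A and EV 2B together 41 were, against 19.6%, both settings being chosen after seeing the data. When 1 EV line was left out, the number ran from 38 without EV 1A, against 6.56% of all tested genes, to 47 without EV 2C, against 20.4%.

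**Figure D4:**
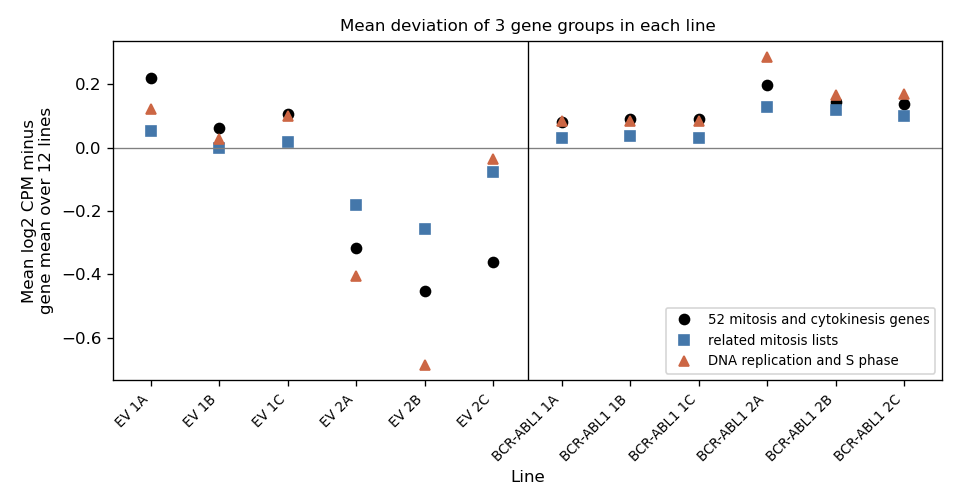
For each of the 12 lines, symbols give the mean of log2 CPM minus the gene's mean over 12 lines, for the 52 genes (circles), the lists of related mitosis genes together (squares) and genes of DNA replication and S phase (triangles). All circles of mouse 2 EV lines lie below -0.3, whereas the triangle of EV 2C, at -0.04, lies above those of EV 2A and EV 2B, at -0.40 and -0.69.

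The members also varied together and by different amounts in the conditions. The median SD of log2 CPM over 6 lines was 0.296 in EV and 0.102 in BCR-ABL1 lines, and the EV value was the larger in 50 of 52 members (96.2%). Over all tested genes these medians were 0.329 and 0.171, with the EV value larger in 80.7%. Over the 1326 pairs of members, the median Pearson correlation of log2 CPM was 0.76 across 12 lines, 0.89 across 6 EV lines and 0.33 across 6 BCR-ABL1 lines. The points of these correlations share library, scaling and mouse, and the EV value includes the difference between mice.

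Related genes were taken from 7 further lists, to be read against the 22.5% of all tested genes higher, 25.9% lower and 16.9% with an effect that differed between mice. In DNA replication and S phase 7 of 27 genes were higher and 0 lower against no change, with a median log2 fold change of 0.25, and the effect differed between mice in 9. Of 29 inner kinetochore genes 4 were higher and 1 lower, and in 20 the effect differed between mice. Of 41 other spindle and centrosome genes 10 were higher and 2 lower, with a difference between mice in 29. Of 20 condensin and cohesin genes 5 were higher and 3 lower, with a difference between mice in 11, of which 10 had the larger value in mouse 2. Of 17 anaphase-promoting complex genes 5 were higher and 2 lower, with a difference between mice in 2. Among 23 genes of the MuvB, B-MYB, E2F and RB families, which control transcription of cell cycle genes, 5 were higher and 6 lower, and 7 differed between mice in their effect. Among 15 G2 checkpoint genes 2 were higher and 0 lower (1 lower at an unadjusted p under 0.05, and 0 in the S phase list). The effect differed between mice in 5 of these 15, with the larger value in mouse 2 in 3.

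By 1.5-fold 1 gene of these 7 lists was called, and it was lower, where 5.99% of all tested genes were higher and 6.49% lower. Wapl, which releases cohesin from chromosomes, had means of 322 CPM (EV) and 125 CPM (BCR-ABL1), a log2 fold change of -1.36 (SE 0.16, glmTreat FDR = 0.000724 by edgeR). In a further list, whose counts are not reported here, 1 gene was called by 1.5-fold and was higher. This was Sept9, a septin, with means of 25.8 CPM (EV) and 110.0 CPM (BCR-ABL1), a log2 fold change of 2.09 (SE 0.37, glmTreat FDR = 0.00510 by edgeR).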

How the data were processed

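RNA of 12 lines was extracted with the ReliaPrep kit, made into TruSeq stranded total RNA (Gold) libraries and sequenced on an Illumina HiSeq machine. The authors deposited whole-number counts per gene, not normalized and with no replicates pooled. The submitters' processing notes name FastQC 0.11.5, Trimmomatic 0.36, TopHat2 2.1.1, Bowtie2 2.3.2, featureCounts 1.5.3, R 3.6.1, edgeR 3.18.1 and GRCm38. The strand setting and whether reads or pairs were counted are not given in the sources used here. Exons of several members overlap a gene on the other strand.

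Groups came from sample labels. The software was edgeR 4.0.16 (all main tests), DESeq2 1.42.0 (as an alternative) and limma 3.58.1 under R 4.3.3, with matplotlib 3.10.9 under Python 3.11.15 for plots. Symbols and exon lengths were taken from GENCODE M21 (51633 of 51826 identifiers). Genes kept by filterByExpr were scaled by TMM and tested with glmTreat (1.5-fold) and glmQLFTest (no change, and mouse by condition). The main fit for condition had no term for mouse. Benjamini-Hochberg adjustment ran over all tested genes, with a threshold of 0.05. Standard errors come from the spread of log2 CPM (prior count 2) between lines. P-values measure the spread between lines that share 2 mice. Each line had at least 34791011 counts, and replicates differed by more than counting error (below). Marker genes were checked against a floor of 3 counts. The fits were tested on simulated counts with 200 changed genes. For the tests of condition the simulated mice did not differ, so these tests were not checked under a difference between mice.

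The 52 members and the lists were chosen with earlier results of these data known. Values by line are given for members called by 1.5-fold, the 6 with the smallest p among positive log2 fold changes, all 5 negative ones, the 3 with the largest interaction F and 10 preset anchors. Of related lists only genes called by 1.5-fold are named. A further list, which enters the related genes plotted together, is not reported here except for its 1 gene called by 1.5-fold. EV and BCR-ABL1 lines share the numbers 1A to 2C. Deviations from condition means correlated at 0.0853 to 0.240 within a mouse and at -0.203 to -0.0636 between mice, and at -0.109 to 0.0856 for equal letters once mouse means were removed, which pairs the lines by mouse and not by letter. No pair of replicates agreed within sampling noise (chi-square per gene at least 9.96). Alternatives were DESeq2's size factors (RLE), other filters, a likelihood ratio fit, DESeq2, replicate blocks, single mice and leaving out each line. Protein-coding genes alone, EV 2A and EV 2B left out together and the contrasts between mice within a condition were added after seeing the data.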

Additional observations from a re-analysis of the deposited data

Results flagged for a closer look

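For 38 of the 52 members the log2 fold change of BCR-ABL1 against EV lines differed between the mice (edgeR interaction, FDR under 0.05). The difference, as the log2 fold change of mouse 2 minus that of mouse 1, was largest for Pttg1 2.42. It was between 0.70 and 1.00 for Nek2 0.99, Espl1 0.91, Cit 0.89, Foxm1 0.88, Cdca2 0.83, Kif14 0.78, Cdc25c 0.76, Incenp 0.75, Prc1 0.75, Bub1 0.75, Anln 0.73, Kif2c 0.70, Ttk 0.70. It was between 0.37 and 0.69 for Spc25 0.67, Spc24 0.66, Ect2 0.63, Kif11 0.62, Cenpe 0.62, Kif18b 0.62, Kif4 0.61, Cdca3 0.61, Mad2l1 0.61, Bub1b 0.59, Ndc80 0.57, Nusap1 0.56, Top2a 0.55, Ccna2 0.55, Aurkb 0.53, Kif20a 0.53, Kif20b 0.52, Kif23 0.51, Hmmr 0.51, Tpx2 0.49, Mki67 0.48, Aurka 0.41, Racgap1 0.40, Nuf2 0.37. Of the 52 members, 46 were lower in EV lines of mouse 2 than in those of mouse 1 (edgeR, FDR under 0.05). In BCR-ABL1 lines 1 member differed between the mice by the same test. BCR-ABL1, IL7 withdrawal and the lack of a sort cannot be told apart here. The values of each mouse are given in the plot of log2 fold changes, and their cause was not tested.

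Single lines lay far from the other 5 of their condition (gap over range above Dixon's 95% value for 6 samples) in 18 of 104 groups of 6 lines. The groups are genes measured in the same lines and are not independent, so the 18 cannot be set against a chance rate. None of the 18 was of EV lines. Each EV group pools 2 mice, whose EV lines differed in most members. The part of this in the absence of EV groups was not tested. In 15 of the 18 the line was BCR-ABL1 2A and lay above the rest. Its CPM was 522 for Ccna2, 317 for Ccnb1, 299 for Cdk1, 131 for Cdca3, 206 for Cdc20, 180 for Aurkb, 152 for Nuf2, 153 for Kif20a, 178 for Kif20b, 86.0 for Kif2c, 160 for Kif4, 245 for Tpx2, 248 for Nusap1, 188 for Hmmr and 2113 for Top2a. BCR-ABL1 2A was the lowest line for Cdca8, at 78.7 CPM, and for Kif23, at 105 CPM. For Birc5 the lowest line was BCR-ABL1 1C, at 133 CPM. BCR-ABL1 2A had 1.18% of its counts on mitochondrial genes, against 1.90 to 3.81% in the other lines. The cause was not tested. Without BCR-ABL1 2A, 13 members were higher against no change, where 19.5% of all tested genes were called higher.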

How the results depend on the processing

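The number of members higher by 1.5-fold was 2 in mouse 2 lines alone and 1 to 2 when single lines were left out (2 without EV 1A, Nek2 in addition at an edgeR FDR of 0.0289). The number lower by 1.5-fold was 1 in mouse 1 lines alone and 0 to 1 when single lines were left out (1 without EV 2C, Cdc25b). Against no change, 37 members were higher and 0 lower in mouse 2 lines alone, where 9.16% and 9.74% of all tested genes were called. In mouse 1 lines alone 20 were lower, against 33.5%. Without EV 2A and EV 2B together 11 were higher and 3 lower, against 23.6% and 25.9%. Leaving out single lines gave 13 to 23 higher and 1 to 1 lower, against 19.2 to 26.5% and 21.6 to 28.8% of all tested genes. In fits of this kind the effect differed between mice in 28 to 46 members, a count not taken over all tested genes. Without a gene filter and with protein-coding genes alone 13 members were higher, with fewer positive values (44) in the latter. The shares of all tested genes called higher in these 2 settings were 7.58% and 22.5%. With mouse as replicate block 21 members were higher and 1 lower, against 25.1% and 27.2% of all tested genes. With line number as replicate block 15 were higher and 1 lower, against 21.4% and 21.6%. The blocks changed no call by 1.5-fold, but with line number as replicate block Aurkb, Nuf2, Tpx2 and Top2a were no longer called against no change.

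Some small log2 fold changes changed sign. Spc24 and Foxm1 were at 0.13 and 0.24 in mouse 2 alone. Espl1 was at 0.015 and 0.019 with mouse and with line number as replicate block, at 0.48 in mouse 2 alone, at 0.0021 without a gene filter, and between -0.14 (without EV 2B) and 0.13 (without EV 1A) when single lines were left out. Kif18b was at 0.022 and 0.028 with these replicate blocks, at 0.34 in mouse 2 alone, 0.038 without a gene filter, 0.0193 with RLE and 0.0192 with DESeq2, and between -0.070 (without EV 2A) and 0.15 (without EV 1A) when single lines were left out. In mouse 1 alone Kif14 was at -0.30, Cdc25c at -0.26, Ccna2 at -0.017, Plk1 at -0.075 and Mki67 at -0.13. Without EV 2A and EV 2B together Kif14 was at -0.13, Cdc25c at -0.11, Plk1 at -0.047 and Mki67 at -0.0056. Kif14 was at -0.020 with protein-coding genes alone, and leaving out single lines put it between -0.040 (without EV 2A) and 0.16 (without EV 1A) and Cdc25c between -0.012 (without EV 2A) and 0.19 (without EV 1A). The causes were not tested. No gene filter moved the median of all genes to -0.84, over 40750 genes of which most have few counts. With 2 mice, a difference between mice rests on 1 animal each.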
